A study of Mus musculus with 8 samples.

Results

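The surface receptors through which lung ILC2s receive cytokine signals were followed at the mRNA level in 10 genes: the 5 alarmin receptor genes Il1rl1, Il1rap, Il17rb, Il18r1 and Crlf2, and the 5 genes Il7r, Il2ra, Il2rb, Il2rg and Il9r of receptors that use the common gamma chain. They were chosen by name, as the receptor chains of these 2 groups, with earlier results of these data known. All 10 of them were among the 12239 genes that passed the filter on low counts, out of 23183 genes counted. The samples were 8 bulk mRNA-seq libraries of cultured lung ILC2s from C57BL/6 mice, 4 treated with 5 µM Yoda1, a chemical agonist of the mechanosensitive channel Piezo1, and 4 with the vehicle, 0.1% DMSO. Treatment lasted 3 h by the methods of the study, which used wild-type C57BL/6J mice of both sexes aged 6 to 10 weeks. All 8 samples shared what came before the treatment: by those methods, lung ILC2s are enriched from mice given recombinant IL-33 and cultured with recombinant IL-2, IL-7 and IL-33 at 10 ng/mL each, so both groups had met ligands of several of these receptors. Enrichment was with magnetic kits, so other cells may remain in the cultures. The sources used here do not give whether the 4 samples per group are separate mice or cultures, so the p-values measure only the spread between these samples, which may be technical.

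Alarmins are cytokines that stressed or damaged tissue gives off, and their receptors are built from a chain that binds the ligand and a partner that it recruits in order to signal. The receptors for IL-33 and IL-18 are members of the IL-1 receptor family and signal through MyD88, the IL-25 receptor belongs to the IL-17 receptor family, and the TSLP receptor signals through Janus kinases and STAT proteins. IL-2, IL-7 and IL-9 signal through receptors that share the common gamma chain, also with Janus kinases and STAT proteins, and keep ILC2s alive and dividing. GATA3 is the transcription factor that defines ILC2s and binds GATA motifs in DNA, while STAT, AP-1 and NFAT proteins are switched on by cytokine, stress or calcium signals and bind motifs of their own.

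The promoter sequences of the receptors show which of these motifs lie next to the starts of the genes whose values follow. RefSeq windows (GRCm38.p6, 250 bases before to 50 after a start) were found for 9 of the 10 genes, 12 windows in all, and Il2rb had none. GATA motifs (AGATAA or AGATAG or TGATAA or TGATAG on either strand) were in 3 windows of 2 genes, Il1rl1 and Il9r, and in 29.8% of all 32851 windows of that length. A STAT motif (TTCNNNGAA) was in 2 windows, one of Il18r1 and one of Il7r, and in 8.3% of all windows. The AP-1 motif (TGANTCA) was in 1 window, that of Il17rb, against 7.81% of all windows, and the short NFAT core (GGAAA) was in 9 windows of 6 genes, against 61.3%. The NFAT core can overlap a GATA or a STAT match. The 4 windows below are those of Il1rl1, the receptor gene that passed the test, and those of its neighbour Il18r1 and of Il7r that hold STAT motifs. Capitals mark the GATA motifs in the Il1rl1 windows and the STAT motifs in the other ones, as read on the strand of the gene.

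Il1rl1, the first start, chr1:40429320-40429619, plus strand: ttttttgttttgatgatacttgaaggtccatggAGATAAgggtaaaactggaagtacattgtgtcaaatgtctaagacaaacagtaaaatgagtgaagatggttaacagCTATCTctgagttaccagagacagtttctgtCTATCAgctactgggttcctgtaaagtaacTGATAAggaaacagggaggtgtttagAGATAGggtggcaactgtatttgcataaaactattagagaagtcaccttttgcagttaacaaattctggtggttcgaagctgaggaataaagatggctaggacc
Il1rl1, the second start, chr1:40439379-40439678, plus strand: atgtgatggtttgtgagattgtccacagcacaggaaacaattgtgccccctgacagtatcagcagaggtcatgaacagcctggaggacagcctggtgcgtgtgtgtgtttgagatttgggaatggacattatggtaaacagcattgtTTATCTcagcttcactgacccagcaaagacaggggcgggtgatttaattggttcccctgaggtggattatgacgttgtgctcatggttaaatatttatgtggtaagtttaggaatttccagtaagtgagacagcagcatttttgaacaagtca
Il18r1, the third start, chr1:40465756-40466055, plus strand: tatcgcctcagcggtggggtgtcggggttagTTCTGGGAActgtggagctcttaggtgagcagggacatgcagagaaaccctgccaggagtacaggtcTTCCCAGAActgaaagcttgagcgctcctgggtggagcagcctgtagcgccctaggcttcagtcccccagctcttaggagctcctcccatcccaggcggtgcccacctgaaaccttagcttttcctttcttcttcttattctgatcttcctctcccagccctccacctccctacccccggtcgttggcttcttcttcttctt
Il7r, its start, chr15:9529827-9530126, minus strand: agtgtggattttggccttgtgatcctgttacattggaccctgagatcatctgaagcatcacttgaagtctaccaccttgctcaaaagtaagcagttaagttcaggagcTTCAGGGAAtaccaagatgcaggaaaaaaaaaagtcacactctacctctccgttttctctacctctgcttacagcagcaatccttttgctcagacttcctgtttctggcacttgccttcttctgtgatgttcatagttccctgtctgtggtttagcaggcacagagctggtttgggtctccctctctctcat

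The first window of Il1rl1 held 5 GATA matches and the second held 1. Windows with 5 or more such matches were 18 of the 32851, or 0.0548%, a threshold set after the Il1rl1 window was seen. A match of letters is no evidence of binding, and these libraries measure mRNA, not binding.

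Library totals ran from 12438009 to 19534653 counts, at which 1 count was worth 0.0514 to 0.0807 CPM (a gene's share of the TMM-scaled library, the unit of all levels below unless a length is named). Of 16 ILC2 markers that are not among the receptors, 15 passed the filter, among them Gata3, and Ptgdr2, the gene of the prostaglandin receptor CRTH2, was at 0 to 2 counts in every library. The exons of Ptgdr2 overlap those of the opposite-strand gene Ccdc86 by 1031 bases, and the strand setting of the counting is not known. Of the 15 tested, 6 were called higher in Yoda1 (Arg1, Areg, Il5, Il13, Thy1 and Ptprc) and 3 lower (Icos, Nmur1 and Tcf7). Gata3, Rora, Id2, Bcl11b, Klrg1 and Kit were not called. The markers summed to 13680 to 14190 CPM with DMSO and 15710 to 16060 with Yoda1. Il13 alone had a mean of 5431 CPM with DMSO and 6667 CPM with Yoda1. Of 6 NK cell or ILC1 markers 3 were called higher (Eomes, Tbx21 and Prf1), and the list summed to 774 to 857 and 834 to 902 CPM. Most of that sum was Prf1, at 5164 to 8276 counts, and Gzma, at 4584 to 7003 counts and not called. Ncr1, at 39 to 93 counts, and Klrb1c, at 69 to 104, were not called, with log2 fold changes of −0.23 and −0.21. T cell markers (7 of 10 in the files) summed to 70.5 to 78.2 and 76.0 to 86.1 CPM, with 0 of 7 called by edgeR, DESeq2 or limma-voom and 1 at an unadjusted p under 0.05. The most counted of the 7 was Cd3g, at 600 to 1023 counts. The 2 regulatory T cell markers, listed because such cells carry Il2ra and Il1rl1, summed to 80.7 to 99.9 and 77.2 to 91.7 CPM. Most of that sum was Ikzf2, at 988 to 1803 counts, while Foxp3 was at 7 to 25 counts. Foxp3 exons overlap those of other genes, such as Flicr by 853 bases on the same strand. Of the 2 markers, 0 were called by any of these tools and 1 had an unadjusted p under 0.05. Mast cell or basophil markers, relevant to Il1rl1, summed to at most 7.001 CPM in any library with Fcer1a and Mcpt4 at 3 counts or fewer. Dendritic cell markers summed to 27.9 to 30.5 and 33.1 to 38.8 CPM with 1 of 3 tested called higher, 1 lower and Cd209a at 0. B cell, macrophage, eosinophil and ILC3 lists stayed at or below 9.09 CPM in every library, with Ms4a1, Csf1r, Lyz2, Marco, Epx and Prg2 at 3 counts or fewer. The epithelium or stroma list was at 217 to 230 and 222 to 226 CPM, nearly all of it Pecam1 at 2724 to 4293 counts. The others of that list were low, with Epcam at 16 to 33 counts, Cdh1 at 32 to 63, Col1a1 at 0 to 5 and Sftpc at 0. The part of these cells in the receptor results was not tested.

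The 10 receptors made up 0.670 to 0.708% of all counts with DMSO and 0.709 to 0.742% with Yoda1, and Il2ra alone took 50.6 to 51.7% of that sum. The receptor levels differed little between the groups. The log2 fold changes ran from −0.14 for Il17rb to 0.13 for Il1rl1, and 31.5% of all genes tested had a larger absolute log2 fold change than any receptor. Only Il1rl1, the ligand-binding chain of the IL-33 receptor, passed the test, at a 1.09-fold higher level. That is 1 of 10 genes called, against 10.9% of all genes called in either direction and 6.04% called higher (edgeR quasi-likelihood test, Benjamini-Hochberg adjusted p under 0.05). A share of 1 in 10 lies near that background. Over all genes 739 were called higher and 592 lower, a split that turned to 505 and 958 with upper-quartile factors and to 553 and 809 with library size only. None of the 10 was called lower, and 0 were lower at an unadjusted p under 0.05 by edgeR or at the adjusted threshold by DESeq2 or limma-voom.

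Groups did not overlap for 3 receptors, Il1rl1, Il18r1 and Il2rg, whose 4 Yoda1 values all lay above the 4 DMSO values. Among all genes tested 15.5% had groups that did not overlap. The receptor count was 1 with library size only and 1 with upper-quartile factors, and 5 when DMSO replicate 4 or Yoda1 replicate 3 was left out. The share of all genes is given here for the reported setting only, and groups separate more easily with a library left out. The unadjusted p was under 0.05 for 5 of the 10 receptors, all of them higher with Yoda1 (Il1rl1, Il18r1, Il7r, Il2ra and Il2rg), and for 25.3% of all genes. The median log2 fold change of the 10 was 0.074, beside −0.0053 over all genes tested, and 7 of the 10 lay above 0. In bulk samples, a lower or higher share of cells that carry a receptor and less or more of its mRNA per cell cannot be told apart.

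**Figure D1:**
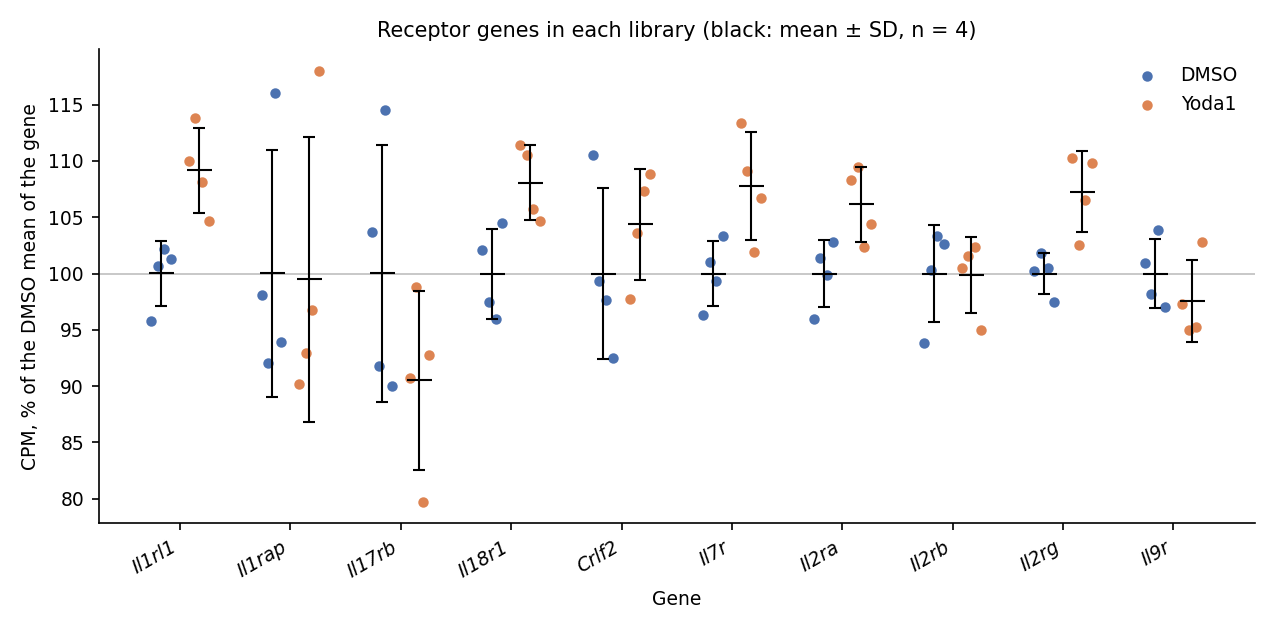
CPM of each of the 10 receptor genes in every library, as a percent of the gene's DMSO mean, with DMSO points at left and Yoda1 points at right of each gene and black bars for the mean ± SD (n = 4). The Yoda1 points of Il1rl1, Il18r1 and Il2rg lie above all DMSO points of the same gene, while the points of the other 7 genes overlap.

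Per length of exon, the receptors spanned a wide range of expression in these cells. Levels between genes are compared as CPM per kb of the union of annotated exons (GENCODE M21, GRCm38). With DMSO, Il2ra stood highest at 619 ± 18.3 CPM per kb (SD, n = 4). Percentiles in this paragraph rank the mean over all 8 libraries among 11780 tested genes with a length, and that of Il2ra was 99.5. Il1rl1 followed at 222 ± 6.33 and Il2rg at 210.1 ± 3.77 CPM per kb, and their sample values overlapped. Next came Il2rb at 171 ± 7.37, Il7r at 72.9 ± 2.12 and Crlf2 at 33.2 ± 2.52 CPM per kb. Il9r lay at 20.2 ± 0.618 and Il18r1 at 17.9 ± 0.716 CPM per kb, at percentiles 78.8 and 77.5. Il17rb was at 4.01 ± 0.457 CPM per kb, percentile 37.1, and Il1rap at 0.859 ± 0.0940 CPM per kb, percentile 14.3. Apart from Il1rl1 and Il2rg, no neighbours in this order overlapped with DMSO, and with Yoda1 only Il9r and Il18r1 did. The order depends on the length: with the longest transcript Il2rg ranked 2 and Il1rl1 3, and with the coding length Il9r, Il18r1 and Crlf2 ranked 6, 7 and 8.

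**Figure D2:**
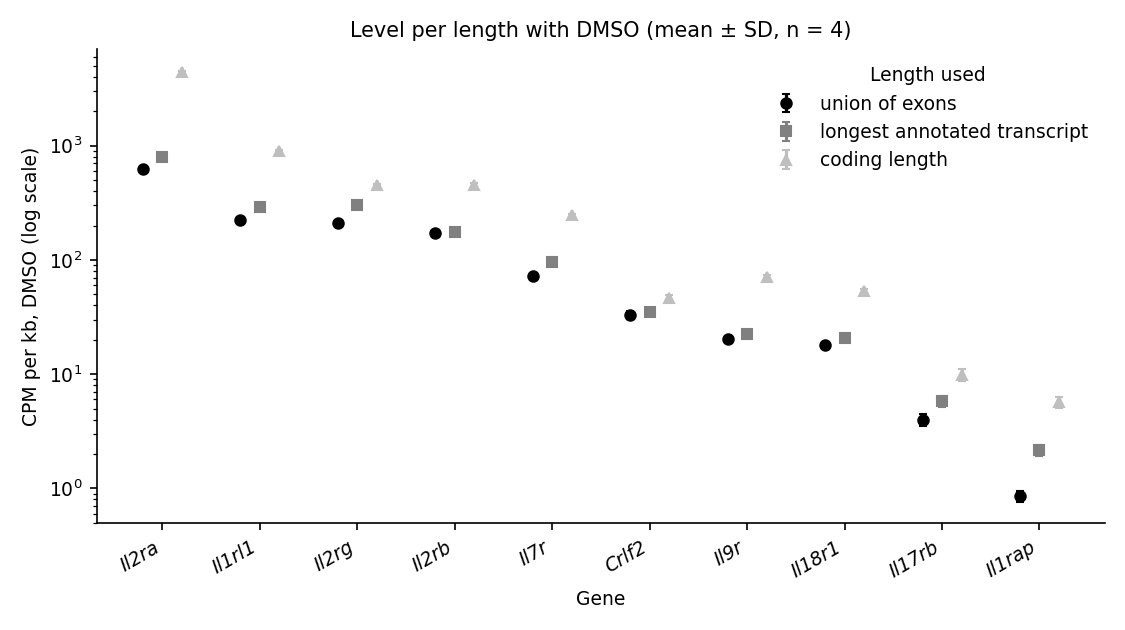
Mean level per length of each receptor gene with DMSO in CPM per kb on a log axis (error bars: SD, n = 4), with circles for the union of exons, squares for the longest annotated transcript and triangles for the coding length. Il2ra is highest and Il1rap lowest under all 3 lengths, from 619 to 0.859 CPM per kb with the union of exons.

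Il1rl1 encodes ST2, the chain that binds IL-33, and lies on chromosome 1 (40429570 to 40465415, plus strand). Its level was 1464, 1538, 1562 and 1549 CPM in DMSO replicates 1 to 4 and 1681, 1739, 1652 and 1599 CPM in Yoda1 replicates 1 to 4. All 4 Yoda1 libraries were above all 4 DMSO libraries, and the lowest Yoda1 value was 1599 against a highest DMSO value of 1562. The mean rose from 1528 ± 43.6 to 1668 ± 58.2 CPM (SD, n = 4), a log2 fold change of 0.13 with an SE of 0.035, or 1.09-fold with a 95% interval of 1.04 to 1.15 (edgeR adjusted p = 0.0183). The call did not survive scaling by library size only (adjusted p = 0.0503) or by upper-quartile factors (0.0761), nor leaving out Yoda1 replicate 1 (0.0672) or Yoda1 replicate 2 (0.0783), and the fold stayed above 1 in each. The annotation holds 5 coding transcripts, of which the longer ones code for 567 residues and others for 337, and the shorter form lacks the membrane anchor and is the soluble decoy. The counts sum all of them, so the membrane and soluble forms were not separated.

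Il18r1, the chain that binds IL-18, begins 136 bases after the end of Il1rl1 on the same strand (40465552 to 40500854). It was at 88.0, 84.0, 82.7 and 90.1 CPM with DMSO and at 96.0, 95.3, 91.1 and 90.2 CPM with Yoda1. The groups were separated by a narrow gap, with the highest DMSO value at 90.10 and the lowest Yoda1 value at 90.22. The mean was 86.2 ± 3.45 with DMSO and 93.1 ± 2.91 with Yoda1, a log2 fold change of 0.11 (SE 0.042) that missed the threshold (edgeR adjusted p = 0.0883). The 95% interval of the fold ran from 1.02 to 1.15, which holds the estimate for Il1rl1. Of the first Il18r1 promoter window, 114 bases lie inside Il1rl1, so the 2 genes share that stretch of DNA.

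Il1rap, the accessory chain that IL-33, IL-1 and IL-36 receptors share, was the lowest of the 10 (chromosome 16, 26581704 to 26730117, plus strand). It was counted at 9.58, 8.98, 11.3 and 9.16 CPM with DMSO and 8.80, 9.07, 9.45 and 11.5 CPM with Yoda1, from 109 to 224 counts a library. The groups overlapped throughout, with 1 high library in each. The means were 9.76 ± 1.07 and 9.71 ± 1.24 CPM. The log2 fold change, which comes from the edgeR fit and not from these means, was 0.0091 (SE 0.105; edgeR adjusted p = 0.969). Its sign is opposite to that of the difference in means, and both are near 0. The fold interval of 0.867 to 1.17 allows changes as large as that of Il1rl1 in either direction. Counting error alone gives a coefficient of variation of 9.58% at the lowest count, beside 10.9% and 12.7% measured in the groups. Its annotated exons overlap those of the antisense gene Gm20319 by 552 bases, and the strand setting of the counting is not given in the sources used here.

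Il17rb encodes the chain of the IL-25 receptor that binds the ligand (chromosome 14, 29996135 to 30008896, minus strand). With DMSO it was at 15.4, 13.6, 17.01 and 13.4 CPM, and with Yoda1 at 13.5, 14.7, 11.9 and 13.8 CPM. Yoda1 replicate 3 was the lowest and DMSO replicate 3 the highest, and the other 6 libraries intermingled. The mean of 14.9 ± 1.69 with DMSO and 13.4 ± 1.18 with Yoda1 gave the largest decrease among the receptors, −0.14 on the log2 scale (SE 0.090), which did not pass the test (edgeR adjusted p = 0.358), with a fold between 0.800 and 1.03. It overlaps the opposite-strand gene Actr8 by 141 exonic bases.

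Crlf2, the TSLP-binding chain that pairs with the IL-7 receptor chain (chromosome 5, 109554709 to 109558993, minus strand), gave 54.8, 49.2, 48.4 and 45.8 CPM with DMSO. With Yoda1 it gave 48.4, 51.3, 53.2 and 53.9 CPM. DMSO replicate 1 was the highest of all 8 libraries and DMSO replicate 4 the lowest, so the groups overlapped. The log2 fold change was 0.062 (SE 0.054; edgeR adjusted p = 0.514) with a fold interval of 0.967 to 1.13.

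Among the common gamma chain receptors, Il2rg itself, the shared chain (chromosome X, 101264378 to 101268255, minus strand), was at 503, 510, 504 and 489 CPM with DMSO and at 553, 514, 534 and 551 CPM with Yoda1. Every Yoda1 library lay above every DMSO library, Yoda1 replicate 2 by the least. Group means of 501.4 ± 8.99 and 537.9 ± 18.1 CPM gave a log2 fold change of 0.10 (SE 0.035) and a fold interval of 1.02 to 1.13. The edgeR adjusted p of 0.0598 missed the threshold, while DESeq2 (0.0314) and leaving out Yoda1 replicate 2 (0.0331) put it past. The same-strand gene Gm20489 shares 728 exonic bases with it.

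Il7r binds IL-7 and, with Crlf2, TSLP (chromosome 15, 9505788 to 9530176, minus strand). Its levels were 328, 343, 338 and 351 CPM with DMSO and 385, 371, 346 and 363 CPM with Yoda1. Only Yoda1 replicate 3 fell among the DMSO values. The means of 339.9 ± 9.89 and 366.3 ± 16.3 CPM differed by 0.11 on the log2 scale (SE 0.037; edgeR adjusted p = 0.0574), with a fold interval of 1.02 to 1.14. Without Yoda1 replicate 3 the adjusted p was 0.0219, and with no filter on low counts it was 0.0411.

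Il2ra encodes CD25, which raises the affinity of the IL-2 receptor without signalling itself (chromosome 2, 11642807 to 11693193, plus strand). It had 3394, 3588, 3532 and 3636 CPM with DMSO and 3831, 3874, 3621 and 3692 CPM with Yoda1. The highest DMSO library exceeded the lowest Yoda1 library, and the other 6 libraries fell apart by group. The means were 3538 ± 105 and 3755 ± 118 CPM, a log2 fold change of 0.086 (SE 0.035; edgeR adjusted p = 0.115). It was the most deeply counted of the 10, at 47457 to 71775 counts a library, and its fold interval was 1.01 to 1.12.

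Il2rb, the signalling chain of the IL-2 and IL-15 receptors (chromosome 15, 78479256 to 78495271, minus strand), was at 686, 734, 756 and 750 CPM with DMSO and 735, 743, 749 and 695 CPM with Yoda1. The groups covered the same range. Their means of 732 ± 31.6 and 731 ± 24.5 CPM gave a fold of 0.999 with an interval of 0.947 to 1.05 (edgeR adjusted p = 0.979).

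Il9r, which pairs with the common gamma chain to bind IL-9 (chromosome 11, 32187541 to 32200279, minus strand), stood at 101, 98.2, 104 and 97.0 CPM with DMSO and 97.3, 94.97, 95.3 and 103 CPM with Yoda1. Of the 4 Yoda1 values 3 lay at the low end of the DMSO range or below it, and Yoda1 replicate 4 lay near its top. The fold of 0.977 was within the SDs of 3.06 CPM with DMSO and 3.63 CPM with Yoda1. The log2 fold change was −0.034 (SE 0.041; edgeR adjusted p = 0.665), with a fold interval of 0.921 to 1.04.

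**Figure D3:**
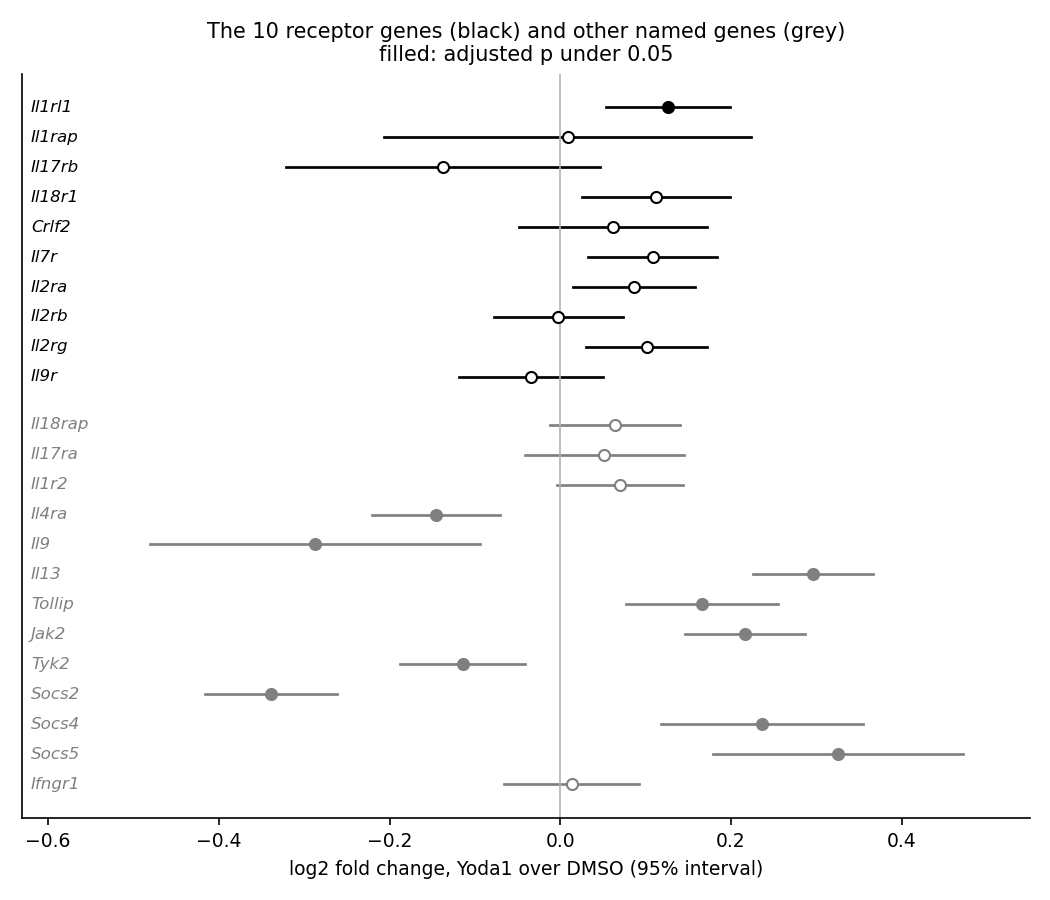
The log2 fold change of Yoda1 over DMSO with its 95% interval for the 10 receptor genes (black) and other named genes (grey), where filled points have an edgeR adjusted p under 0.05 and Il1rl2, whose interval is much wider, is left out. Among the receptors only Il1rl1 is filled, at 0.13, and Il4ra, Socs2 and Il13 lie farther from 0.

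**Figure D4:**
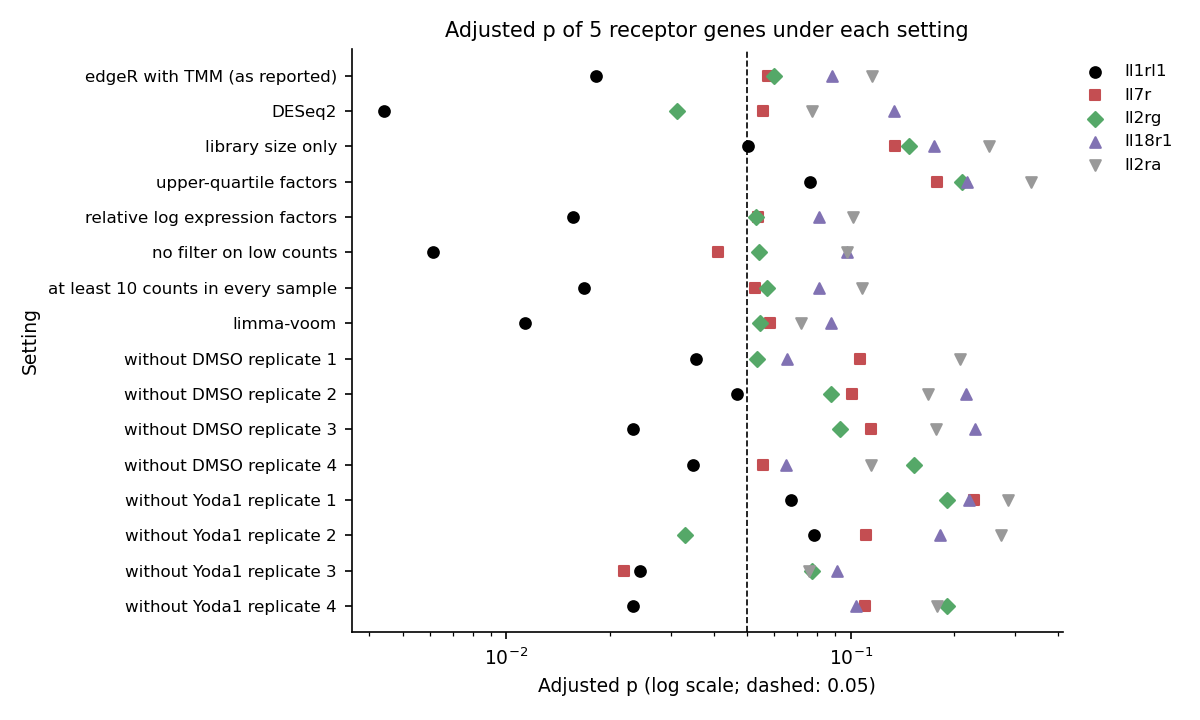
Adjusted p of Il1rl1, Il7r, Il2rg, Il18r1 and Il2ra on a log axis under the settings named at left, with the threshold of 0.05 dashed. Il1rl1 crosses it under library size only, upper-quartile factors and without Yoda1 replicate 1 or 2, and Il7r and Il2rg drop below it in 2 settings each. The replicate block is not drawn.

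Subunits of one receptor can also be compared within a library, where the ratio of their counts per kb does not depend on how libraries are scaled. An exact permutation test (two-sided, 4 against 4, smallest possible p 0.0286) was run on 9 ratios, with Benjamini-Hochberg adjustment over the 9. The ratio of the ligand chain Il1rl1 to its accessory chain Il1rap was 260 ± 25.6 with DMSO and 287 ± 40.8 with Yoda1 (exact p = 0.257), while the DMSO ratio was 134.5 by the longest transcript and 159 by coding length. Il18r1 to its partner Il18rap was 0.334 ± 0.0221 and 0.344 ± 0.0110 (exact p = 0.457), and to its neighbour Il1rl1 0.0808 and 0.0799 (exact p = 0.800).

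One pair with the common gamma chain had groups that did not overlap. Il9r to Il2rg was 0.0969, 0.0929, 0.0995 and 0.0958 with DMSO and 0.0848, 0.0892, 0.0861 and 0.0901 with Yoda1. All 4 Yoda1 libraries were below all 4 DMSO libraries, which is 10.4 Il2rg per Il9r with DMSO and 11.4 with Yoda1, on a difference of −0.14 in log2 ratio. The size of every ratio depends on the length used, while the difference between groups does not. The DMSO mean of Il9r to Il2rg was 0.0743 by the longest transcript and 0.157 by coding length. The exact permutation p was 0.0286, the smallest the design allows, and 0.257 after adjustment. Taken alone, Il2rg had a log2 fold change of 0.10 and Il9r of −0.034, so the ratio largely repeats the Il2rg values given above. Il2rb to Il2rg was 0.813 ± 0.0414 and 0.757 ± 0.0453 (exact p = 0.143), and Il2ra to Il2rb was 3.63 ± 0.0879 and 3.86 ± 0.159 (exact p = 0.114). Il7r to Il2rg was 0.347 and 0.349 (exact p = 0.886). Crlf2 to its partner Il7r was 0.456 ± 0.0477 and 0.442 ± 0.0384 (exact p = 0.686), and Il17rb to its partner Il17ra was 0.524 ± 0.0571 and 0.457 ± 0.0402 (exact p = 0.114). No ratio of the 9 passed after adjustment.

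**Figure D5:**
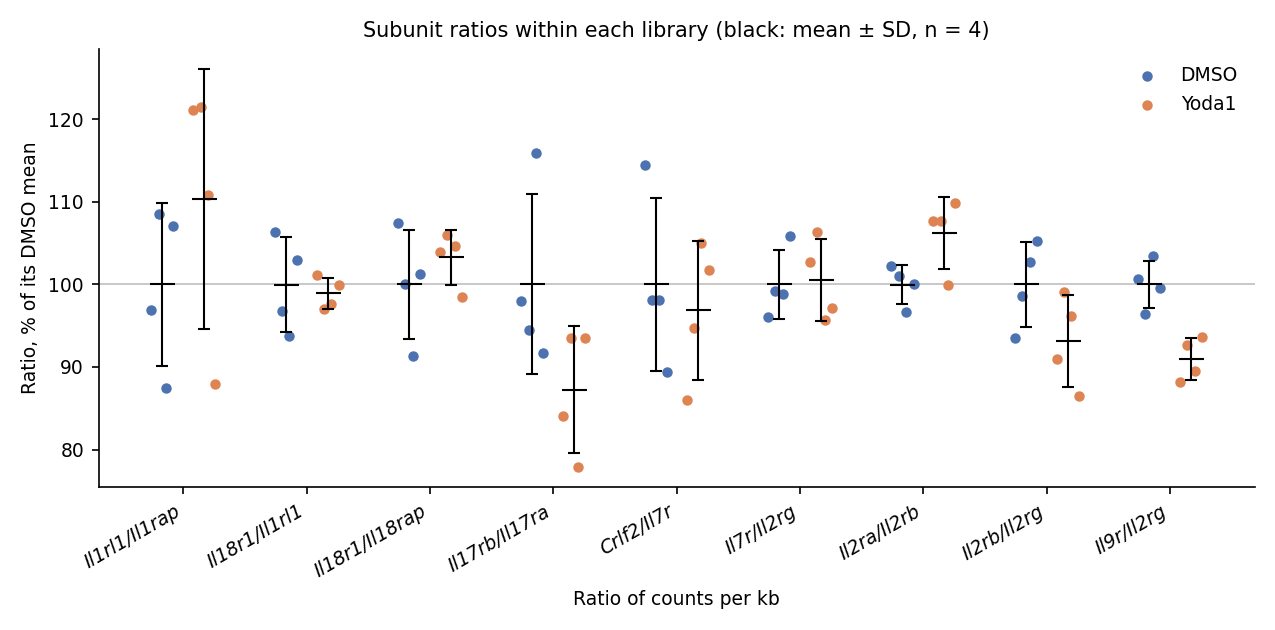
Each of the 9 ratios of counts per kb in every library, as a percent of its DMSO mean, with DMSO points at left and Yoda1 points at right of each pair and black bars for the mean ± SD (n = 4). Only the Il9r to Il2rg ratio has groups that do not overlap, at 0.0963 with DMSO and 0.0876 with Yoda1.

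Around these receptors, neither partner subunit passed the test. Il18rap was at 363 ± 17.1 and 379 ± 9.83 CPM (edgeR adjusted p = 0.294) and Il17ra at 66.3 ± 2.61 and 68.8 ± 2.53 CPM (adjusted p = 0.520). Of these partners 0 had an unadjusted p under 0.05 in edgeR and 0 were called by DESeq2 or limma-voom. The chromosome 1 cluster that holds Il1rl1 and Il18r1 also has Il1r2, a decoy receptor for IL-1, at 173 ± 3.53 and 182 ± 4.27 CPM (adjusted p = 0.226). In that cluster Il1r1, at 2 to 10 counts, was not tested, and Il1rl2, at 6 to 27 counts, gave −0.63 (SE 0.31; adjusted p = 0.204). Of the 5 genes of the cluster that were tested, Il1rl1 was the only one called.

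Of the other receptors of these families, 1 passed the test. Of 6 other IL-1 and IL-17 family receptors and decoys tested, 0 were called by edgeR, DESeq2 or limma-voom and 0 had an unadjusted p under 0.05, with a median log2 fold change of −0.070. Among 3 other common gamma chain and IL-4 or IL-13 receptor genes tested, Il4ra, which IL-4 and IL-13 receptors share, fell from 455 ± 19.99 to 412 ± 10.6 CPM. Its values were 435, 472, 473 and 441 with DMSO and 401, 423, 404 and 418 with Yoda1, so the groups did not overlap. The log2 fold change was −0.15 (SE 0.037; edgeR adjusted p = 0.00886), with 0.0502 when DMSO replicate 2 was left out, and the antisense gene Gm44876 overlaps it.

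Most ligands of these receptors were scarce in the cells themselves. Il25 was at 0 counts, Il33 at 0 to 4, Tslp at 0 to 3 and Il2 at 0 to 12, so 4 of 13 listed ligand genes were tested. Il13, the effector cytokine of ILC2s, rose from 5431 ± 187 to 6667 ± 114 CPM (0.30, SE 0.034; edgeR adjusted p = 3.61e-07). Il9, whose receptor is described above, fell from 13.0 ± 0.945 to 10.7 ± 1.23 CPM (−0.29, SE 0.094; edgeR adjusted p = 0.0465). That call was lost with DESeq2 (adjusted p = 0.114) and when any library other than DMSO replicate 2 or Yoda1 replicate 3 was left out (0.0757 to 0.173).

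Downstream of the receptors, 6 of 31 listed signalling genes tested passed the test, 4 higher and 2 lower with Yoda1, beside the 10.9% called among all genes. Of 13 alarmin signalling genes, Tollip, an adaptor that restrains IL-1 receptor signalling, was the only one called and rose from 69.5 ± 1.65 to 77.8 ± 3.18 CPM (0.17; edgeR adjusted p = 0.0119). Of 10 Janus kinase and STAT genes, 1 was higher and 1 lower, with a median log2 fold change of 0.063. Jak2, a kinase used by the TSLP receptor, rose from 757 ± 15.3 to 880 ± 24.1 CPM (0.22, SE 0.034; edgeR adjusted p = 5.05e-05).

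Tyk2, another Janus kinase, fell from 219 ± 5.16 to 203 ± 5.72 CPM (−0.11; edgeR adjusted p = 0.0370), and leaving out any library other than DMSO replicate 4 or Yoda1 replicate 3 lost the call (0.0513 to 0.119). The antisense gene 1700084C06Rik overlaps its exons. Of 8 SOCS genes, feedback inhibitors of cytokine receptors, 2 rose and 1 fell. Socs2, a target of STAT5, fell from 147 ± 4.65 to 116 ± 1.69 CPM (−0.34, SE 0.038; adjusted p = 1.93e-07). Socs5 rose from 18.5 ± 1.64 to 23.3 ± 0.273 CPM (0.33; adjusted p = 0.00269) and Socs4 from 27.9 ± 0.841 to 32.8 ± 1.13 CPM (0.24; adjusted p = 0.00703). These genes are counted here because the receptors signal through them, and the relation between their levels and those of the receptors was not tested.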

How the data were processed

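The authors deposited, per the file headers and values, raw whole-number read counts per gene symbol for each of 8 libraries, without normalization. The methods of the study name FastQC, FASTX Trimmer, BBMap and Cufflinks, and the submitters' processing notes name TopHat and mm10. Which annotation and strand setting the counting used is not given in the sources used here. Libraries were poly(A)-selected and made with a directional kit. Totals ran from 12438009 to 19534653 counts. The floor of 3 counts covers counting error only, since reads are not independent molecules.

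In R 4.3.3, genes were filtered with edgeR 4.0.16 (filterByExpr, minimum count 10, total 15), scaled by TMM and compared, Yoda1 against DMSO, by the robust quasi-likelihood test, and p-values were adjusted over 12239 genes (Benjamini-Hochberg, threshold 0.05). Intervals (95%) used the SE, the absolute log2 fold change over the root of F, and so cover the spread between samples as well as counting error. Subunit ratios used two-sided exact permutation tests. Exon lengths were taken from GENCODE M21 (GRCm38), which matched 95.5% of symbols. The tests were tested on simulated data. The changes planted for the edgeR test were larger than that of any receptor, so changes as small as these were not covered. Within each group every pair of libraries differed by more than sampling noise (chi-square per gene 2.04 to 6.98), so all 8 were kept.

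Members and gene lists were chosen with earlier results of these data known. Some listed genes are not reported here and were left out of the list counts. Named genes were the 10 receptors, Il18rap and Il17ra, the genes of the chromosome 1 cluster, list genes past the threshold, and the 3 listed receptors highest per length (Il1r2, Ifngr1 and Il4ra). Marker genes are named with their list, and Il25, Il33, Tslp and Il2 were named after their values were seen. Alternatives were DESeq2 1.42.0, limma-voom (limma 3.58.1), library size only, upper-quartile and relative log expression factors, no filter, 10 counts in every sample, the replicate block, each library left out, and 2 other gene lengths.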

Additional observations from a re-analysis of the deposited data

Results flagged for a closer look

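Among 66 groups of 4 samples examined for a library far from the others, 1 stood apart, where chance would give about 3.3. It was Jak2 in DMSO replicate 1, at 734.4 CPM against 763.3 CPM in the nearest of the other DMSO libraries, a gap of 0.882 of the range of the group. None of the 10 receptor genes had such a library in either group.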

How the results depend on the processing

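The number of receptors called was 1 as reported, 2 with DESeq2 (Il1rl1 and Il2rg), 2 with no filter on low counts (Il1rl1 and Il7r), and 0 with library size only or upper-quartile factors. It ran from 0 to 2 as libraries were left out: 0 without Yoda1 replicate 1, and Il2rg in place of Il1rl1 without Yoda1 replicate 2. Receptors whose groups do not overlap were 3 as reported, 1 with library size only and 1 with upper-quartile factors, and from 3 to 5 as libraries were left out, with 5 without DMSO replicate 4 or without Yoda1 replicate 3. Smaller groups separate more easily, and no share of all genes is given for these settings. The median log2 fold change of all genes was −0.027 with library size only and −0.036 with upper-quartile factors, beside −0.0053 as reported. In the lists, other cytokine receptors called lower were 0 as reported, 1 with library size only and 2 with upper-quartile factors. The chromosome 1 cluster had 0 called higher under both. The cause was not tested.

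With the replicate number as a block, 0 receptors were called, with Il1rl1 at an adjusted p of 0.0709. The calls of Il9 (0.0538) and Tyk2 (0.0729) were lost as well. Same-numbered samples showed no clear joint deviation: the correlations over the 4 pairs were −0.0277 to 0.0711. Of the 4 DMSO samples, 1 correlated best with its own number. No pairing by number was seen, but such weak correlations cannot exclude it.

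The log2 fold changes of Il1rap, Il2rb and Ifngr1, all near 0, changed sign. Il1rap was −0.012 with library size only, −0.022 with upper-quartile factors, −0.0015 with the replicate block and from −0.098 to 0.088 as libraries were left out. Il2rb was 0.0011 with DESeq2 and from −0.032 to 0.021 as libraries were left out. Ifngr1 was −0.0081 with library size only, −0.017 with upper-quartile factors and from −0.011 to 0.035 as libraries were left out. In DMSO, Il1rl1 ranked 3 and Il2rg 2 by the longest transcript, and Il9r 6, Il18r1 7 and Crlf2 8 by coding length. The ratios kept their direction or moved by less than the replicate spread in every alternative run. Among the 10 receptors, counts were lowest for Il1rap and Il17rb, at 109 to 224 and 158 to 268 counts a library.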

Other observations

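Beyond the alarmin and common gamma chain families, 16 of 21 other cytokine receptor genes listed could be tested. Ifngr1, the ligand-binding chain of the interferon gamma receptor, was the highest of these per length, at 82.1 ± 3.58 CPM per kb with DMSO (n = 4), above Il7r and below Il2rb. Its values overlapped between groups, with means of 234 ± 10.2 and 236 ± 9.27 CPM and an edgeR adjusted p of 0.871. Of the 16, 0 were called by edgeR, DESeq2 or limma-voom, 2 had an unadjusted p under 0.05, and the median log2 fold change was −0.024.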
